A study of Homo sapiens with 9 samples.

Results

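The genes for 4 interferon ligands (IFNL1, IFNL2, IFNL3 and IFNB1) and for 6 chains of the receptors that bind interferons (IFNLR1, IL10RB, IFNAR1, IFNAR2, IFNGR1 and IFNGR2) were read in T47D, a luminal breast cancer line of human origin that is long established in culture. These 10 genes were chosen by name, out of 43395 names on the array, and 14 of its 58201 probes carry 1 of the names, 4 for ligands and 10 for receptor chains. RNA was measured on 9 one-color microarrays, 3 for each of 3 stable lines. T47D-VC1 carries the empty expression vector, T47D-PA6 carries the same vector with the full-length long noncoding RNA PTH-AS, and T47D-PA5 carries an incomplete PTH-AS that lacks part of the 5′ side. PTH-AS is transcribed antisense near the parathyroid hormone gene, and the comparison asks which genes differ when T47D cells are made to express it. The lines were established by selection with G418, the labels name no interferon treatment, and each line is a single selected stable line, so PTH-AS cannot be told apart from other differences between the selected lines.

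Interferons are secreted cytokines, and those of type I and type III are made by cells that sense viral or misplaced nucleic acid. IFNB1 (interferon beta) is a type I interferon and binds the pair IFNAR1 and IFNAR2. IFNL1, IFNL2 and IFNL3 (interferon lambda) are type III interferons and bind IFNLR1 with IL10RB, and this receptor is found mainly on epithelial cells. IFNGR1 and IFNGR2 form the receptor of interferon gamma, the type II interferon. Both the type I and the type III receptor act through the kinases JAK1 and TYK2 and a transcription factor complex that contains STAT2 and IRF9.

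The 60-base probes that report the ligands are printed here because the lambda genes resemble each other. They are written 5′ to 3′ with hg19 positions, as the array files give both, and capitals mark the longest run that the IFNL1 and IFNL2 probes share, 9 bases. Only the first 30 bases of the IFNL2 probe are shown.
IFNL1, chr19:39789091-39789150, plus strand: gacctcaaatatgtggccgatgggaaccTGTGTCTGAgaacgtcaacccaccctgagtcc
IFNL2, chr19:39760635-39760694, plus strand: tggggacctgTGTGTCTGAccctcccacca
IFNL3, chr19:39735102-39735454, minus strand: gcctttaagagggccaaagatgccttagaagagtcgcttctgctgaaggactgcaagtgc
IFNB1, chr9:21077535-21077594, minus strand: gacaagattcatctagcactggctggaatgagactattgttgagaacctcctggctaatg
The IFNL3 probe shares at most 5 bases in a row with the probes of IFNL1 and IFNL2. Its 60 bases span 353 bases of the genome, so the probe crosses a splice junction. The array's annotation ties this probe to transcripts of both IFNL3 and IFNL2, whose coding sequences are close to identical, so its signal cannot be assigned to IFNL3 alone. The IFNL2 probe in turn shares 1 Ensembl transcript annotation with the IFNL3 probe, and the IFNL1 probe shares none with either.

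Of the ligands, IFNL2 was the 1 whose probe was well above background on all 9 arrays, as Feature Extraction marks it. IFNL1 was well above background on 0 of 3 arrays of T47D-VC1, 2 of 3 of T47D-PA5 and 3 of 3 of T47D-PA6. IFNL3 and IFNB1 were each well above background on 2 of 3 arrays of T47D-PA6 and on 0 of the 6 arrays of the other lines. The IFNL3 probe is also annotated to an IFNL2 transcript, so the 2 probes annotated to IFNL2 differ in T47D-VC1 and T47D-PA5. Detection of IFNL2 in those lines therefore rests on the IFNL2 probe alone. By the weaker mark, positive and significant against background on all 3 arrays, 1 ligand probe passed in T47D-VC1, 2 in T47D-PA5 and all 4 in T47D-PA6.

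IFNL2 rose in T47D-PA6. Its quantile-normalized signal was 30.6, 24.2 and 28.3 on the T47D-VC1 arrays (replicates 1, 2 and 3), 44.6, 63.2 and 48.3 on the T47D-PA5 arrays, and 134, 221 and 235 on the T47D-PA6 arrays. The 3 lines did not overlap, and T47D-PA6 replicate 1 was the lowest of its line. The T47D-PA6 mean of 191 was 6.92-fold that of T47D-VC1, a log2 difference of 2.79 ± 0.23 (SE of the limma fit, n = 3 arrays per line; adjusted p = 0.00055). It was 3.71-fold the T47D-PA5 mean of 51.5, a log2 difference of 1.89 ± 0.23 (limma, adjusted p = 0.0035). T47D-PA5 against T47D-VC1 gave a log2 difference of 0.90 ± 0.23, with a 95% interval of 0.37 to 1.43, and did not pass the test (limma, adjusted p = 0.11). The size of the T47D-PA6 difference from T47D-VC1 depended on the background handling, and after normexp background correction it was 1.53 (log2).

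IFNL1 was above background on all arrays of T47D-PA6 alone. The signal was 6.52, 2.45 and 2.62 on the T47D-VC1 arrays, 8.99, 21.2 and 11.4 on the T47D-PA5 arrays, and 33.4, 72.8 and 81.9 on the T47D-PA6 arrays. The lines did not overlap, but every T47D-VC1 value was below the level at which a signal counts as measured, so the fold is an approximate bound. Set against the dimmest signals that still count as measured on the T47D-VC1 arrays, the T47D-PA6 level of IFNL1 was at least 4.68-fold higher (means 58.4 and 3.47, limma adjusted p = 0.0025). The probe entered the test only through T47D-PA6, where it is high, so this p was open to the choice of probes tested. The bound holds for this background handling only. After normexp background correction the difference of T47D-PA6 from T47D-VC1 was 1 (log2), a smaller fold than the bound. Against T47D-PA5, with 2 of 3 arrays above background and a mean of 13.0, the log2 difference was 2.17 ± 0.49 (limma, adjusted p = 0.029), a p open to the same choice of probes. This call was lost with replicate number as a block (adjusted p = 0.051), with slide as a block (adjusted p = 0.07), with no filter on dim probes (adjusted p = 0.1), by the methods' unpaired test (adjusted p = 0.12), and when T47D-PA5 replicate 1 or 3 or T47D-PA6 replicate 2 or 3 was left out (adjusted p = 0.088, 0.096, 0.1 and 0.11). IFNL1 in T47D-PA5 did not pass against T47D-VC1 (limma, adjusted p = 0.11), where the bound was at least 1.04-fold.

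IFNL3 and IFNB1 did not enter the test, because neither was well above background on all arrays of any line. The IFNL3 probe gave 3.17 to 3.34 on the T47D-VC1 arrays, 3.26 to 4.75 on the T47D-PA5 arrays, and 14.3, 29.4 and 31.0 on the T47D-PA6 arrays. All 3 T47D-PA6 values lay above all 6 others, and the bound was at least 1.88-fold over T47D-VC1 and at least 1.81-fold over T47D-PA5. The T47D-PA6 mean in these bounds includes replicate 1, which was not well above background. The IFNB1 probe gave 2.62 to 3.43 on the T47D-VC1 arrays, 2.60 to 2.74 on the T47D-PA5 arrays, and 11.3, 10.7 and 16.3 on the T47D-PA6 arrays. These T47D-PA6 values also lay above all others, yet they sit at the edge of detection, and no fold over background can be given for IFNB1. When all 58201 probes were tested with no filter, the adjusted p of T47D-PA6 against T47D-VC1 was 0.0079 for IFNL3 and 0.0045 for IFNB1 in limma. For both probes, no T47D-VC1 signal was well above background, nor was that of T47D-PA6 replicate 1. These p-values therefore rest on the spread of signals at the floor and do not give a measured change. The study's own list of altered genes, made on the same arrays, holds these 4 ligands, so their direction here is not independent evidence.

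**Figure D1:**
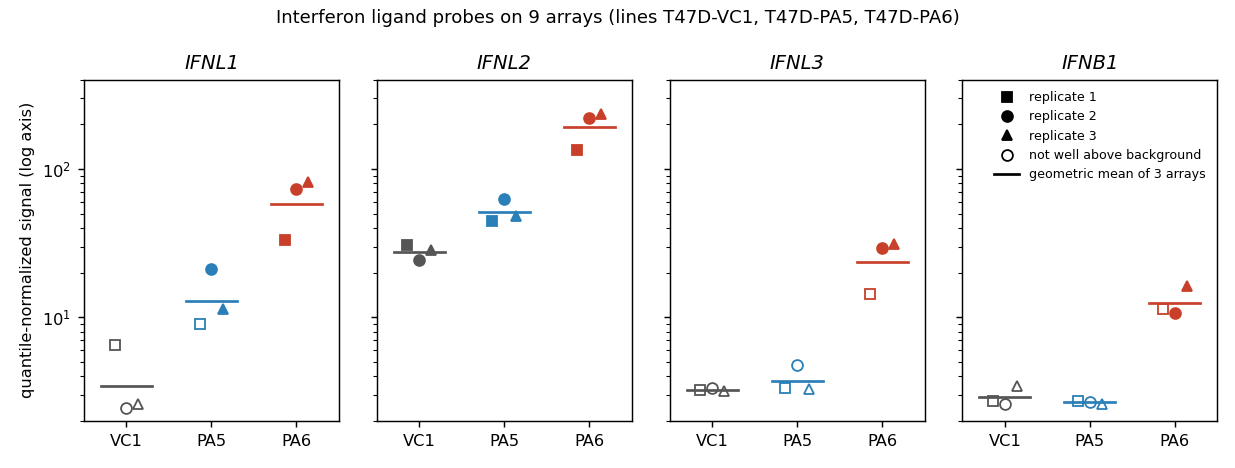
Quantile-normalized signal (log axis) of the 4 ligand probes on the 3 arrays of each line, with horizontal bars at the geometric mean; filled symbols are well above background and open symbols are not. T47D-PA6 lies above both other lines for each ligand, from 134 to 235 for IFNL2 and from 10.7 to 16.3 for IFNB1, and levels of different probes are not comparable.

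The arrays of T47D-PA6 differed among themselves in the ligands. Replicate 1 of every line was on 1 slide scanned in an earlier run, and replicates 2 and 3 were on other slides scanned in a later run. T47D-PA6 replicates 2 and 3 shared a slide with replicate 3 of the other lines. Replicate 2 of T47D-VC1 and T47D-PA5 was on a slide with no T47D-PA6 array, so line and slide are partly mixed in the later run. In T47D-PA6, replicate 1 minus the mean of replicates 2 and 3 was -1.21 (log2) for IFNL1, -0.77 for IFNL2, -1.08 for IFNL3 and -0.23 for IFNB1. In T47D-VC1 the same quantity for IFNL1 was 1.36, at signals not well above background. Within the earlier run the T47D-PA6 signal of IFNL2 exceeded that of T47D-VC1 by 2.13 (log2, 1 array each), and within the later run by 3.12 (2 arrays each). On the slide that the lines shared in the later run, with 1 T47D-VC1 array, it did so by 3.01. For IFNL1 no such difference is given, because the T47D-VC1 signal was not well above background in either run. When the later run was analysed alone, IFNL2 also passed in T47D-PA5 against T47D-VC1, at a log2 difference of 1.09 (limma, adjusted p = 0.018), in a fit that called 4800 of 27466 probes. What sets replicate 1 apart was not tested.

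Across the 9 arrays the ligand signals followed each other, with a Pearson r from 0.81 (IFNL1 and IFNB1) to 0.97 (IFNL1 and IFNL2) over the 6 pairs, where IFNL3 and IFNB1 were not well above background on most arrays and IFNL1 on none of T47D-VC1. The 9 points share 3 lines, and these values are a description. The promoters of the ligands are shown for this reason, as the 250 bases before the transcription start from RefSeq on GRCh38.p14, with capitals for matches of 2 short motifs on either strand. The first is GAAA, any 2 bases, then GAAA, a pair of the half-sites bound by interferon regulatory factors. The second is GGGA, any 2 bases, then TTCC, a form of the site bound by NF-kappaB, and the 2 motifs do not overlap in these windows.
IFNL1, chr19:39296157-39296406, plus strand: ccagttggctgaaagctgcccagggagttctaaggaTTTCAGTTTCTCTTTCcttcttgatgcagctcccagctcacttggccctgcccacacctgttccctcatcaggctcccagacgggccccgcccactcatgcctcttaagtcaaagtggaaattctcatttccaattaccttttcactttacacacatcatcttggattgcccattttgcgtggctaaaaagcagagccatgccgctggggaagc
IFNL2, chr19:39268146-39268395, plus strand: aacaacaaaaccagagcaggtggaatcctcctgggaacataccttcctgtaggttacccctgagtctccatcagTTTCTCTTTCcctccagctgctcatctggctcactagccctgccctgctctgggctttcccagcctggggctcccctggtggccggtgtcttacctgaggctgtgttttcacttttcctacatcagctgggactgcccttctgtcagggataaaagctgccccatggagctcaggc
IFNB1, chr9:21077943-21078192, minus strand: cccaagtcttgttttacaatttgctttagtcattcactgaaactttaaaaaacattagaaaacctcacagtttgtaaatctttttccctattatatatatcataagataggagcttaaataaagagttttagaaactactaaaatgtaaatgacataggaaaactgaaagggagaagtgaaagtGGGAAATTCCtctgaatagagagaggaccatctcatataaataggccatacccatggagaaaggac
The IFNL1 promoter holds the paired GAAA motif as 2 overlapping matches on the minus strand, which together read TTTCAGTTTCTCTTTC on the plus strand, and IFNL2 holds 1 match, 167 to 176 bases before its start. The IFNL3 window at 1 of its 2 annotated starts matches the IFNL2 window at 249 of 250 bases and holds the same match, whereas the window at the other start holds none. IFNB1 holds 1 match of the NF-kappaB motif, 57 to 66 bases before its start. The paired GAAA motif asks for exactly 2 bases between the repeats. The IFNB1 window also reads GAAAACTGAAA, where more bases part them, so the lack of a match does not mean that it lacks such half-sites. Of 35116 promoters of this length, 3.02% hold the paired GAAA motif and 1.40% hold the NF-kappaB motif. Of the receptor chains with a promoter in the table (IFNAR2 has none there), IFNGR2 holds 1 match of the NF-kappaB motif. Another motif was scanned and is not in capitals, TTCNNNGAA, where N is any base. It matched IFNB1, 210 to 218 bases before the start, and IFNLR1, and 6.57% of all promoters hold it. A match is a description of the letters only.

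The other interferon genes were at background. Of 18 further ligands (the interferon alpha genes, IFNE, IFNK, IFNW1, IFNG and IFNL4), 13 have a probe and 0 were well above background on all arrays of any line, so 0 were tested. The probes of 12 were above background on no array, IFNG among them, with mean signals of 3.83, 2.95 and 3.33 in VC1, PA5 and PA6 cells. The exception was IFNA4, above background on 1 array of T47D-VC1, 1 of T47D-PA5 and 2 of T47D-PA6, with mean signals of 10.3, 10.8 and 12.3.

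All 6 receptor chains were measured by at least 1 probe well above background throughout the 9 arrays, 7 of 10 receptor probes in all. In T47D-PA6 against T47D-VC1, 0 of these 7 receptor probes passed the test in limma (2 at an unadjusted p under 0.05), and in T47D-PA5 against T47D-VC1 also 0 (again 2 at an unadjusted p under 0.05). Counted with the ligands, 2 of 9 tested member probes passed in T47D-PA6 against T47D-VC1 (IFNL1 and IFNL2), beside 10.6% of all 26173 tested probes. Of these, IFNL1 was tested only because T47D-PA6 is high, and among probes above background on all 9 arrays 1 member probe passed, IFNL2. In T47D-PA5 against T47D-VC1, 0 of 9 passed in limma (4 at an unadjusted p under 0.05, and 0 by the methods' unpaired test after adjustment), beside 1.62% of all tested probes. In T47D-PA6 against T47D-PA5, 3 of 9 passed (IFNL1, IFNL2 and IFNGR1), beside 9.91%. Here too IFNL1 was tested only because T47D-PA6 is high, and among probes above background on all 9 arrays IFNL2 and IFNGR1 passed.

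Neither chain of the lambda receptor passed the test in any comparison over all 9 arrays. IFNLR1, the chain that only lambda interferons use, gave 371, 400 and 394 on the T47D-VC1 arrays, 358, 495 and 495 on the T47D-PA5 arrays and 394, 475 and 455 on the T47D-PA6 arrays. The lines overlapped, and the log2 difference of T47D-PA6 from T47D-VC1 was 0.18, with a 95% interval of -0.15 to 0.52 (limma, adjusted p = 0.48). In the later run alone it passed against T47D-VC1 in both lines, at 0.23 in T47D-PA6 (limma, log2, adjusted p = 0.039) and 0.33 in T47D-PA5 (limma, log2, adjusted p = 0.029). Those fits, on 2 arrays per line, called 9250 and 4800 of 27466 probes, so a pass there was common. The other IFNLR1 probes, at other positions of the gene, were above background on no array and gave 2.80 to 12.5. IL10RB, a chain shared with the receptors of interleukin-10 and interleukin-22, gave 593, 718 and 739 on the T47D-VC1 arrays, 771, 758 and 754 on the T47D-PA5 arrays and 731, 845 and 761 on the T47D-PA6 arrays. T47D-PA6 overlapped both other lines, all T47D-PA5 arrays lay above all T47D-VC1 arrays, T47D-VC1 replicate 1 was the lowest, and the T47D-PA6 difference from T47D-VC1 was 0.19 (log2), with a 95% interval of -0.07 to 0.45 (limma, adjusted p = 0.32).

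The type I receptor chains also gave no call. IFNAR1 gave 704, 368 and 372 on the T47D-VC1 arrays, 664, 398 and 395 on the T47D-PA5 arrays and 571, 432 and 437 on the T47D-PA6 arrays. Replicate 1, on the slide of the earlier run, was the highest in all 3 lines, by 0.93, 0.75 and 0.39 (log2) over the mean of replicates 2 and 3 in VC1, PA5 and PA6 cells. The line means were 458, 471 and 476, and the 95% interval of the T47D-PA6 difference from T47D-VC1 ran from -0.62 to 0.73 (limma, log2, adjusted p = 0.93). Within the later run alone, T47D-PA6 was higher than T47D-VC1 by 0.24 (limma, log2, adjusted p = 0.032), in a fit that called 9250 of 27466 probes. The sign of the difference turned when T47D-VC1 replicate 2 or 3 or T47D-PA6 replicate 1 was left out, at -0.10, -0.10 and -0.08.

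IFNAR2, the partner chain, has 3 probes. Its probe at chr21:34635002-34635061 (hg19) gave 99.6, 106 and 115 on the T47D-VC1 arrays, 176, 150 and 167 on the T47D-PA5 arrays and 148, 145 and 117 on the T47D-PA6 arrays. The 3 lines did not overlap, and here T47D-PA5, the line with the incomplete PTH-AS, was the highest. The T47D-PA5 mean of 164 was 1.53-fold that of T47D-VC1, a log2 difference of 0.62 ± 0.13 that lay just outside the threshold (limma, adjusted p = 0.054). It passed when the test was limited to probes above background on all 9 arrays (adjusted p = 0.049) and without T47D-PA6 replicate 1 (adjusted p = 0.045). T47D-PA6 differed from T47D-VC1 by 0.35 ± 0.13 on this probe (limma, log2, adjusted p = 0.11). The second probe, at chr21:34625061-34625120, gave 39.7 to 73.6 in T47D-VC1, 73.5 to 85.9 in T47D-PA5 and 56.7 to 84.1 in T47D-PA6, and the lines overlapped. The third, annotated to other IFNAR2 transcripts, was above background on no array, with signals of 2.61 to 3.61 in T47D-VC1, 8.43 to 13.9 in T47D-PA5 and 5.84 to 8.37 in T47D-PA6. When all probes were tested with no filter it passed against T47D-VC1 in both lines (limma, adjusted p = 0.045 for T47D-PA6 and, rounded, 0.05 for T47D-PA5). These p-values rest on the spread of signals at the floor and do not give a measured change.

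The gamma receptor held the 1 receptor call. IFNGR1, the chain that binds interferon gamma, gave 765, 759 and 690 on the T47D-VC1 arrays, 605, 596 and 638 on the T47D-PA5 arrays and 736, 924 and 894 on the T47D-PA6 arrays. T47D-PA5 was below both other lines with no overlap, and T47D-VC1 overlapped T47D-PA6. T47D-PA6 was 1.38-fold T47D-PA5, a log2 difference of 0.47 ± 0.11 (limma, adjusted p = 0.037), whereas it differed from T47D-VC1 by 0.20 (log2), with a 95% interval of -0.06 to 0.46 (limma, adjusted p = 0.30). In the later run alone it passed against T47D-VC1 too, at 0.33 (limma, log2, adjusted p = 0.033), in a fit that called 9250 of 27466 probes. The call against T47D-PA5 was lost with slide as a block (adjusted p = 0.068), after a 75th percentile shift (adjusted p = 0.085), with no filter (adjusted p = 0.054), with the compared lines alone (adjusted p = 0.061), by the methods' unpaired test (adjusted p = 0.1), and when any of T47D-VC1 replicates 2 and 3, T47D-PA5 replicates 1, 2 and 3 or T47D-PA6 replicates 2 and 3 was left out, at an adjusted p of 0.06 to 0.14. IFNGR2, the signaling chain, gave 749, 912 and 861 on the T47D-VC1 arrays, 978, 1090 and 980 on the T47D-PA5 arrays and 897, 1140 and 1210 on the T47D-PA6 arrays. T47D-PA6 overlapped both other lines, and its log2 difference of 0.36 from T47D-VC1, with a 95% interval of 0.04 to 0.67, did not pass (limma, adjusted p = 0.14). Without T47D-PA6 replicate 1 it did, at 0.49 (limma, adjusted p = 0.039). It also passed in the later run alone, at 0.41 (limma, adjusted p = 0.022), in the same fit with 9250 calls.

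**Figure D2:**
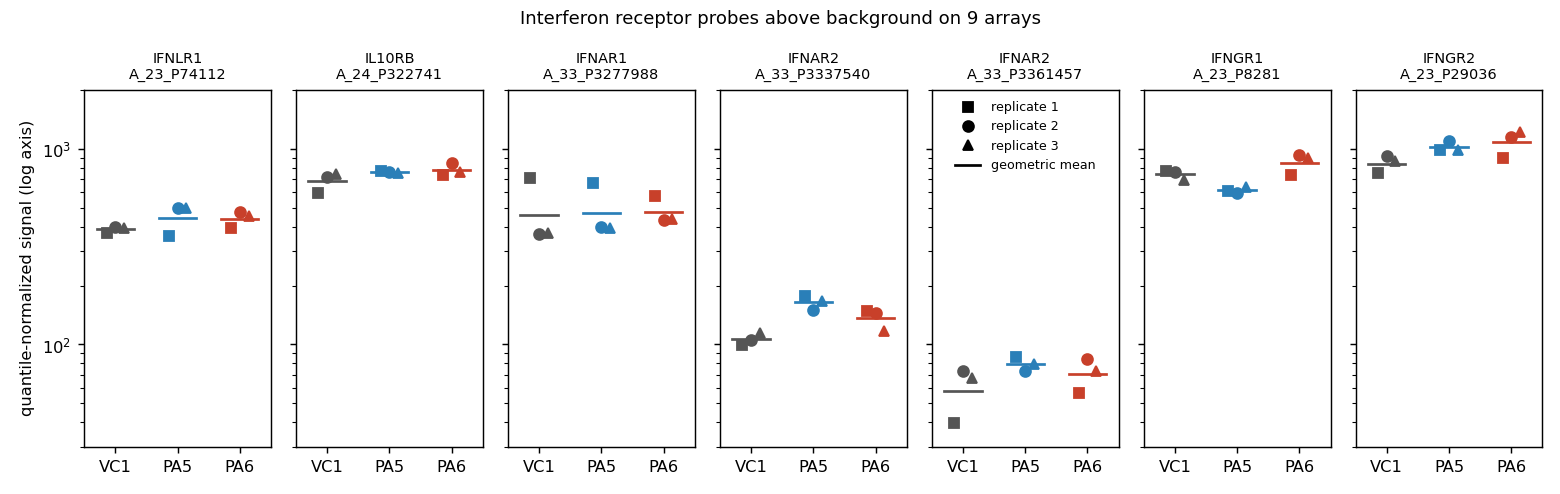
Quantile-normalized signal (log axis) of the 7 receptor probes measured on all 9 arrays, 3 per line, with horizontal bars at the geometric mean. IFNAR1 separates by replicate, with replicate 1 at 571 to 704 and the others at 368 to 437, and levels of different probes are not comparable.

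**Figure D3:**
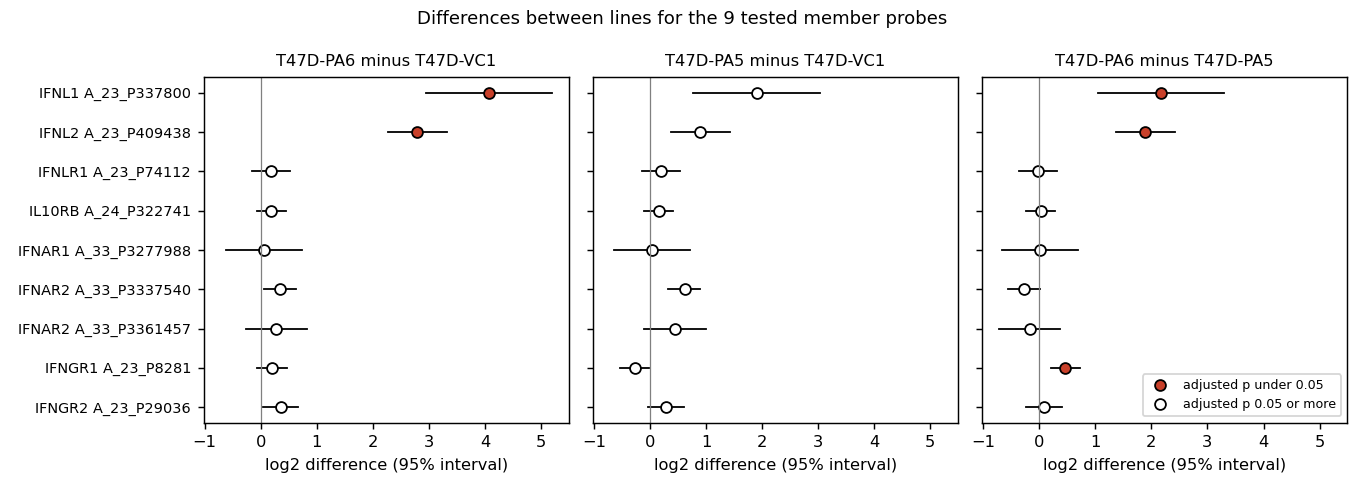
Log2 difference between lines with its 95% interval from the limma fit for the 9 tested member probes, filled where the adjusted p was under 0.05. IFNL1 and IFNL2 stand at 4.07 and 2.79 in T47D-PA6 minus T47D-VC1, where IFNL1 rests on T47D-VC1 signals not well above background, and every receptor interval there lies between -0.62 and 0.82.

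Of the receptor genes, 4 (IFNAR2, IL10RB, IFNAR1 and IFNGR2) lie side by side on chromosome 21, and the 3 lambda genes lie together on chromosome 19. Within 1000000 bases on each side of the receptor probes, 28 other genes were tested, and 1 was called higher and 0 lower in T47D-PA6 against T47D-VC1, with a median log2 difference of 0. Around the lambda probes 54 other genes were tested, and 4 were called higher and 1 lower, with a median of -0.01. The same share over all genes was 10.1%, and the median over all 20108 tested genes was -0.03.

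The genes that pass the interferon signal on were taken as a list of JAK1, JAK2, TYK2, STAT2 and IRF9. Of these 5, 2 passed in T47D-PA6 against T47D-VC1, both higher, 1 in T47D-PA5 against T47D-VC1 and 2 in T47D-PA6 against T47D-PA5, beside 10.1%, 1.65% and 9.65% of all genes. The list's median log2 differences were 0.13, 0.11 and 0.12. Those that passed were the transcription factors and not the kinases. IRF9, the DNA-binding part of the complex, gave 180 to 222 in T47D-VC1, 487 to 979 in T47D-PA5 and 1560 to 1840 in T47D-PA6, and it rose in T47D-PA6 by 3.16 ± 0.25 (log2, limma, adjusted p = 0.00052) and in T47D-PA5 by 1.99 ± 0.25 (limma, adjusted p = 0.0087). Its T47D-PA5 call was lost by the methods' unpaired test (adjusted p = 0.15). STAT2 rose in T47D-PA6 by 1.23 ± 0.20 (limma, log2, adjusted p = 0.0075). JAK1 and TYK2 differed from T47D-VC1 by -0.42 (adjusted p = 0.11) and -0.18 (adjusted p = 0.45) in limma, on the log2 scale.

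Of the 19 genes that sense nucleic acid or switch on ligand genes, 17 were tested. In T47D-PA6 against T47D-VC1, 8 were called higher and 1 lower, beside 10.1% of all genes, with a median of 0.35 (log2) beside -0.03 over all genes. In T47D-PA5 against T47D-VC1, 1 was called higher and 0 lower, beside 1.65%, with a median of 0.27. In T47D-PA6 against T47D-PA5, 5 were called higher and 1 lower, beside 9.65%, with a median of 0.20. The gene that fell was IKBKE, a kinase that activates IRF3 and IRF7, at -1.12 against T47D-VC1 (limma, log2, adjusted p = 0.0032) and -1.39 against T47D-PA5 (limma, log2, adjusted p = 0.0022), named after its values were seen. The cytoplasmic RNA sensors IFIH1, RIGI and DHX58 rose in T47D-PA6 by 2.29 ± 0.24, 1.83 ± 0.25 and 1.86 ± 0.30 (limma, log2, adjusted p = 0.0013, 0.004 and 0.0082). The RIGI call was lost by the methods' unpaired test (adjusted p = 0.082). STING1, the adaptor of DNA sensing, rose by 1.19 ± 0.14 (limma, adjusted p = 0.0021), while CGAS, the enzyme that feeds it, was above background on no array. IRF7, a factor that amplifies ligand transcription, rose by 3.0 ± 0.27 in T47D-PA6 (limma, adjusted p = 0.00071) and by 1.53 ± 0.27 in T47D-PA5 (limma, adjusted p = 0.033). The T47D-PA5 call of IRF7 was lost with replicate number as a block (adjusted p = 0.05 after rounding), with no filter (0.11), with the compared lines alone (0.077) and by the methods' unpaired test (0.22). It was also lost when any of T47D-VC1 replicates 1, 2 and 3, T47D-PA5 replicates 2 and 3 or T47D-PA6 replicates 2 and 3 was left out (adjusted p = 0.052 to 0.14). IRF1 rose by 1.48 ± 0.24 in T47D-PA6 (limma, adjusted p = 0.0084), a call lost by the methods' unpaired test (adjusted p = 0.085). IRF3, the factor that starts ligand transcription in most cells, had means of 807, 812 and 802 in VC1, PA5 and PA6 cells, and its T47D-PA6 difference was -0.01 (limma, adjusted p = 0.97). TLR3, the endosomal RNA sensor, gave 26.9, 10.6 and 7.39 on the T47D-VC1 arrays, of which only the first was well above background, 26.8, 49.3 and 38.6 on the T47D-PA5 arrays and 79.3, 47.2 and 48.6 on the T47D-PA6 arrays. T47D-PA6 did not overlap T47D-VC1 (limma, adjusted p = 0.023), no fold is given against a level measured on 1 of 3 arrays, and the call was lost with no filter (adjusted p = 0.079), with the compared lines alone (0.051), by the methods' unpaired test (0.16), and without T47D-VC1 replicate 2 or 3 or any 1 T47D-PA6 array (adjusted p = 0.051 to 0.078).

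Of 8 genes that restrain the receptors, 2 were called higher in T47D-PA6 against T47D-VC1 and 0 lower, beside 10.1% of all genes, with a median of 0.13 (log2). In T47D-PA5 against T47D-VC1 and in T47D-PA6 against T47D-PA5, 1 was called higher each time, beside 1.65% and 9.65% of all genes. USP18, which binds IFNAR2 and blunts the type I response, gave 462 to 482 in T47D-VC1, 671 to 861 in T47D-PA5 and 1590 to 1810 in T47D-PA6, with no overlap, and was that gene in both. It rose by 1.87 ± 0.12 in T47D-PA6 (limma, log2, adjusted p = 3e-04) and by 0.70 ± 0.12 in T47D-PA5 (limma, adjusted p = 0.027). The T47D-PA5 call was lost with the compared lines alone (adjusted p = 0.055) and by the methods' unpaired test (0.13). It was also lost when any of T47D-VC1 replicates 1, 2 and 3, T47D-PA5 replicates 2 and 3 or T47D-PA6 replicates 2 and 3 was left out (adjusted p = 0.051 to 0.12). Among 12 related receptor and ligand genes of the IL-10 family, 5 were tested, and 2 were called higher and 1 lower in T47D-PA6 against T47D-VC1, beside the same 10.1%, with a median of 0.56 (log2). IL22RA1, which pairs with IL10RB to bind interleukin-22, rose by 1.21 ± 0.25 (limma, log2, adjusted p = 0.019). This call was lost with no filter (adjusted p = 0.062), by the methods' unpaired test (0.067) and without T47D-VC1 replicate 3 or T47D-PA6 replicate 2 or 3 (0.062 to 0.076). IL20, a cytokine of the family, gave 15.7 to 29.1 in T47D-VC1, 18.7 to 32.6 in T47D-PA5 and 2.76 to 11.3 in T47D-PA6, where no array was above background, so it was at least 1.70-fold lower there than in T47D-VC1 (limma, adjusted p = 0.039). The probe entered the test only through the lines where it is high, and the call was lost with no filter (adjusted p = 0.12), after a 75th percentile shift (0.079), after normexp correction (0.075), with the compared lines alone (0.078), by the methods' unpaired test (0.2), and without any 1 array other than T47D-PA6 replicate 1 (adjusted p = 0.055 to 0.12).

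**Figure D4:**
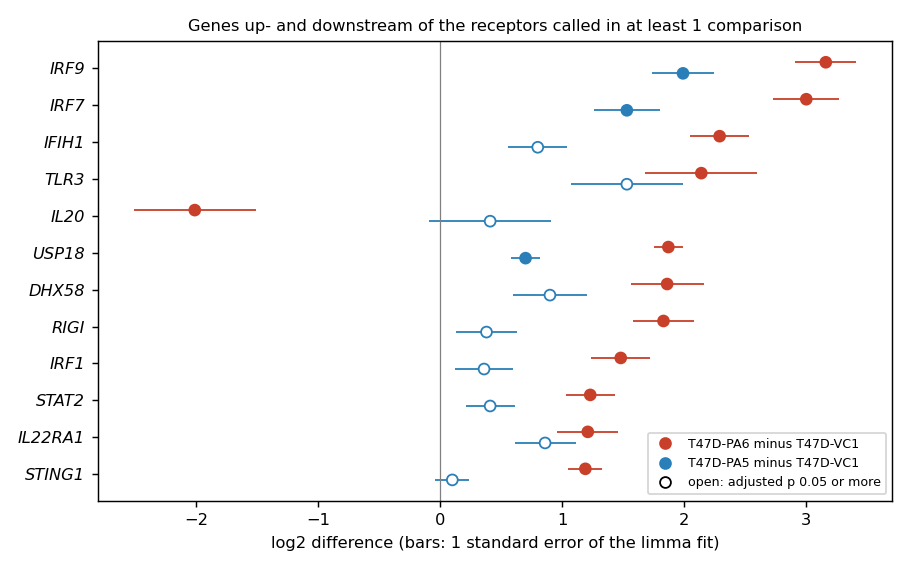
Log2 difference from T47D-VC1 (bars, 1 standard error of the limma fit) for the 12 listed genes up- and downstream of the receptors with the largest T47D-PA6 difference among those called in at least 1 comparison, filled where the adjusted p was under 0.05. IRF9, IRF7 and USP18 are filled for both lines, and IL20 lies at -2.01 for T47D-PA6, where its signal was not well above background.

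Among all other tested genes, those whose signal followed IFNL1 most closely over the 9 arrays were IFI44 (Pearson r = 0.989), TTC9B (0.984), IFIT3 (0.983), IFIT2 (0.981) and RELB (0.981). IFI44, IFIT2 and IFIT3 are interferon-induced genes, and RELB is an NF-kappaB subunit. TTC9B lies on chromosome 19 within the window around the lambda genes, and its mean signal was 37.4, 52.7 and 77.8 in VC1, PA5 and PA6 cells. Those that followed IFNL2 were HCP5 (0.991), TAP1 (0.989), USP18 (0.988), LAMP3 (0.987) and PARP12 (0.987). TAP1 is a peptide transporter of antigen presentation, and its mean signal was 5440, 7850 and 13800 in the same order of lines. The arrays of a line share their origin, and the IFNL1 values of T47D-VC1 were not well above background, so these values describe likeness over 3 lines and carry no test.

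The labelled cell type was read from its markers. All 9 luminal markers (ESR1, PGR, GATA3, KRT8, KRT18, KRT19, EPCAM, CDH1 and FOXA1) were well above background on each of the 9 arrays. Of 7 markers of blood cells that make interferon, 4 were above background on all arrays and 2, CLEC4C and CD3E, on none, and their summed signal was 497 to 589 in T47D-VC1, 443 to 905 in T47D-PA5 and 695 to 770 in T47D-PA6. PTPRC, which marks all nucleated blood cells, had mean signals of 20.3, 20.8 and 18.0, and CD14 had 47.8, 115 and 167 in VC1, PA5 and PA6 cells. CD14 and IL3RA moved with the lines as the ligands did, and their part in the ligand signals was not tested. Between 44.0% and 48.0% of probes were well above background on each array.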

How the data were processed

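Total RNA of T47D-VC1, T47D-PA5 and T47D-PA6 was hybridized to 60-base-probe human expression arrays, 3 arrays per line. The deposited intensity of each spot was the one given by Agilent Feature Extraction (version 10.7.1.1 in the file headers, 9.5.1.1 in the submitters' processing notes), background-subtracted within the array. The authors also deposited a table of quantile-normalized intensity values, whose log2 values correlated at 1 with those made here.

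Between 46 and 117 outlier spots per array were left out, log2 intensities were averaged per probe, and arrays were quantile-normalized. Testing was limited to the 26173 of 58201 probes that all arrays of some line measured well above background, 9 of 14 member probes among them. The lowest signal well above background, over probes with 1 spot, was 9.59 to 15.2, and bounds were computed against it. A probe not well above background can read higher, so the bounds are approximate. On T47D-VC1 replicate 3, where the lowest was 10.9, an IFNLR1 probe not well above background read 12.1. The lines were compared with limma 3.58.1 in R 4.3.3, in 1 fit over 9 arrays, with Benjamini-Hochberg adjustment over all tested probes and a threshold of 0.05. On data simulated for T47D-PA6 against T47D-VC1 with 200 of 26173 probes changed by 2 (log2), the fit called 194 of them and 14 other probes. Where a list gene had several tested probes, the brightest was used. Symbols were brought up to date from RefSeq, where 31127 probes matched on the symbol, 3343 on an accession and 496 on an older name, and 23235 kept the name in the files.

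Members and lists were chosen with earlier results of these data known. All member probes are named. List genes are named when called in at least 1 comparison, at most 12, the largest T47D-PA6 difference first, and others are named after their values were seen. 1 gene of the lists is not reported here. Likeness was computed for the 2 members with the largest range of line means among those above background on all arrays of a line. Same-numbered arrays of T47D-PA6 and T47D-VC1 deviated together from their line means (correlations of 0.33, 0.13 and 0.23 for replicates 1, 2 and 3), as did those of T47D-PA6 and T47D-PA5 (0.26, 0.15 and 0.16), while T47D-PA5 and T47D-VC1 gave 0.19, 0.08 and 0.11. The labels do not say whether arrays of a line came from separate cultures, so p-values measure the spread between arrays, which may be technical. The number of arrays limits the precision. Exact permutation of 3 against 3 arrays cannot go below p = 0.1. The alternatives tried were other normalization, background correction and filters, the authors' table, blocks for replicate number and slide, the later scan run alone, each array left out with normalization and filter repeated, a trended prior, 1 probe per gene, the compared lines alone and the methods' unpaired test. Alternatives for the pathway lists were added after seeing the data.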

Additional observations from a re-analysis of the deposited data

How the results depend on the processing

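The number of member probes called in T47D-PA6 against T47D-VC1 was 2, and it was 5 with no filter on dim probes, 1 with only probes above background on all 9 arrays, 8 in the later scan run alone and 1 by the methods' unpaired test. For T47D-PA5 against T47D-VC1 it was 0, against 1 with no filter, 1 with only probes above background on all 9 arrays and 3 in the later run alone. For T47D-PA6 against T47D-PA5 it was 3, against 1 with slide as a block, 5 in the later run alone and 0 by the methods' unpaired test. With 1 array left out, these counts ran from 2 to 5, from 0 to 2 and from 1 to 5. The later run alone called 9250 of 27466 probes in T47D-PA6 against T47D-VC1, IFNL3 and IFNB1 among them, against T47D-VC1 signals not well above background. It called 4800 in T47D-PA5 against T47D-VC1 and 8971 in T47D-PA6 against T47D-PA5. The IFNL1 call in T47D-PA6 against T47D-VC1 was lost by the methods' unpaired test (adjusted p = 0.066), as was that of IFNL2 against T47D-PA5 (0.062). IFNL2 passed in T47D-PA5 against T47D-VC1 without T47D-PA6 replicate 1 (0.91, log2, adjusted p = 0.032). With the replicate number as a block, the paired counts of member probes called were 2, 0 and 2. After normexp background correction the differences of T47D-PA6 from T47D-VC1 were smaller, at 1 (log2) for IFNL1 and 1.53 for IFNL2.

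Of the 35 tested pathway list genes, 16, 3 and 10 were called in the 3 comparisons in the same order, beside 10.1%, 1.65% and 9.65% of all genes. The methods' unpaired test called 8, 0 and 3, beside 644, 38 and 964 of 26173 probes. The later run alone called 18 in T47D-PA5 against T47D-VC1 and 21 in T47D-PA6 against T47D-PA5, in fits that called 4800 and 8971 of 27466 probes. The compared lines alone called 1 in T47D-PA5 against T47D-VC1, beside 339 of 25791 probes. With no filter 5 were called in T47D-PA6 against T47D-PA5, beside 1690 of 58201 probes. With 1 array left out, the counts ran from 10 to 16, from 1 to 6 and from 5 to 11. The replicate block gave 16, 2 and 10, and the call lost in T47D-PA5 against T47D-VC1 was IRF7. Ligand probes above background numbered 1 in T47D-PA5 and 2 in T47D-PA6, and both the weaker mark and the rule of at least 1 array gave 2 and 4.

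The differences that turned sign were not called over all 9 arrays, nor at the settings that turned them, though IFNAR1 in T47D-PA6 against T47D-VC1 passed in the later run alone (0.24, log2, adjusted p = 0.032). With 1 array left out, IFNAR1 ran from -0.10 to 0.37 (log2) in T47D-PA6 against T47D-VC1 and from -0.21 to 0.35 in T47D-PA5 against T47D-VC1. In T47D-PA6 against T47D-PA5, the 75th percentile shift gave -0.01 for IL10RB and -0.01 for IFNAR1, slide as a block gave -0.01 for IFNAR1, and the later run gave 0.04 for the second IFNAR2 probe. With 1 array left out there, IFNLR1 ran from -0.17 to 0.07, IL10RB from -0.03 to 0.08, IFNAR1 from -0.12 to 0.27 and IFNGR2 from -0.01 to 0.21. The cause was not tested. Signals near background, such as those of IFNL3, IFNB1 and of IFNL1 in T47D-VC1, limit what can be read as a fold.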
